A study of Mus musculus with 24 samples.

Results

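The glycerol response of the mouse kidney under a mock oligonucleotide was taken from 12 of the 24 arrays of the series: the 7 arrays titled as rhabdomyolysis with mock and the 5 titled as sham with mock. Rhabdomyolysis is the breakdown of skeletal muscle, here induced by injecting 50% glycerol into the gastrocnemius muscle. The mice were C57BL/6N males, 10 weeks old and 25 to 28 g. Animals of both groups were injected subcutaneously with 20 mg/kg of the mock oligonucleotide on the day before, 24 h ahead of the muscle injection. They were also given 5 mg/kg of the painkiller carprofen, a cyclooxygenase inhibitor, at the injection and again 3 h later. Drinking water was withheld from both for 23 h, of which 19 h lay before and 4 h after it, so the sham animals were also dehydrated and drug-treated. The sham group went through everything except the glycerol. The protocol describes a mild dose of 0.05 ml and a severe dose of 0.07 ml per 10 g of body weight, and the labels do not tell which was given. Kidneys were collected 24 h after the injection and halved, and total RNA was hybridised to Clariom S mouse arrays. The labels leave it unsaid whether every array is its own animal, so the tests reflect spread among these samples, which may be technical.

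Muscle breakdown releases myoglobin, which is filtered by the glomerulus and taken up by proximal tubule cells, where its heme is toxic. The proximal tubule reabsorbs most filtered solutes and makes glucose, the thick ascending limb reabsorbs salt and secretes uromodulin, and the collecting duct adjusts water, acid and potassium. Injured tubule cells are known to lose these differentiated functions and to switch on Havcr1, Lcn2, Sox9 and keratin genes. Each array measures RNA of a whole kidney sample, so fewer cells of a type and less RNA per cell cannot be told apart in any result below.

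The mock molecule is the control for anti-miR-22, an antisense oligonucleotide against the microRNA miR-22-3p, and the sequences are shown because every animal described here carried the mock. Capitals mark the seed, bases 2 to 8, in the microRNA, and the bases at which the oligonucleotides differ.
miR-22-3p: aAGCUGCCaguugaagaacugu
anti-miR-22: ctTcAacTggcAgct
mock: ctAcTacAggcTgct
The microRNA sequence is RefSeq's. Anti-miR-22 is complementary to bases 2 to 16 of miR-22-3p, and the mock differs from it at 4 bases, numbered from 1 at the 5′ end with the base of anti-miR-22 written before the number: T3A, A5T, T8A, A12T. Of these 4 changes, 1 lies opposite the seed. Untreated kidneys were not analysed here, so what the mock itself changed was not measured.

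The values are on a deposited log2 scale and ran from 2.12 to 19.92 on the 12 arrays. They passed 16, the log2 limit of a 16-bit reading, in 351 probes, 51 probes had sham means of at least 18, and how the scale was set is not given in the sources used here, so fold changes hold on that scale alone. Differences are therefore given mainly as log2 values, glycerol minus sham, with the standard error (SE) of a limma fit. Among 1091 probes of olfactory receptor genes, which the kidney hardly uses, 95% had means below 4.754, and a group mean under that level is called dim here; a difference that rests on a dim mean is named so, and its size is then approximate at best. Here a call means an adjusted p below 0.05, with the adjustment made over all 22205 probes. By this rule glycerol changed 7641 (34.4%), with 4003 up (18.0%) and 3638 down (16.4%). Among the 14013 probes above the dim level in either mock group, 27.2% were higher and 24.1% lower, while among the olfactory receptor probes 16 were higher and 23 lower (3.57% in all). A gain of at least 1 was called in 1451 probes (6.53%), of at least 2 in 373 (1.68%), of at least 3 in 144 (0.649%) and of at least 5 in 18 (0.0811%). Losses of these sizes were called in 1371 (6.17%), 383 (1.72%), 136 (0.612%) and 20 (0.0901%). The median difference over all probes was 0.00. Every list and family count below stands beside these shares of all probes, 18.0% higher and 16.4% lower. For lists whose members were mostly above the dim level, the nearer shares are the 27.2% higher and 24.1% lower of such probes.

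The array sham mock 1 stood apart in injury genes. On the first principal component of the 12 arrays, which held 65.6% of the variance, the other sham arrays lay between -74.60 and -68.91, sham mock 1 at -64.39 and the glycerol arrays between 43.26 and 55.53. Its place was also measured gene by gene, with the mean of the other 4 sham arrays set at 0% and the glycerol mean at 100%. Over the 155 probes that were higher by at least 3 without it, its median place was 13.2% of the way to glycerol. The other sham arrays, each measured against the remaining 4, had medians of -4.05% to -1.59%. Sham mock 1 was part of their reference, which it raised in rising genes, so their medians do not start from the same 0%. Over the 141 probes that were lower by at least 3, its median place was -1.19%; in the falling genes it was sham mock 3 that lay furthest toward glycerol, at 7.40%. Havcr1 lay at 63.9% and Lcn2 at 51.9%. Among probes that moved by at least 3, the array was thus nearer to the injured kidneys in the rising genes and not in the falling ones. Over all probes called without it, its median place was 12.1% in the 3815 higher and 5.15% in the 3487 lower ones. It lay past 50% in 463 of the higher and 470 of the lower probes. The other sham arrays were not measured over these wider sets. Among the glycerol arrays, number 6 stood apart on the second component (6.03% of the variance), at 54.64 against -15.76 to -1.589 in the other 6. The fit that left out sham mock 1 called 7302 (32.9%; 17.2% up, 15.7% down). Among calls made with that array, 7051 (92.3%) were also made without it, with the same sign in each, and these were 96.6% of the calls without it.

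**Figure D1:**
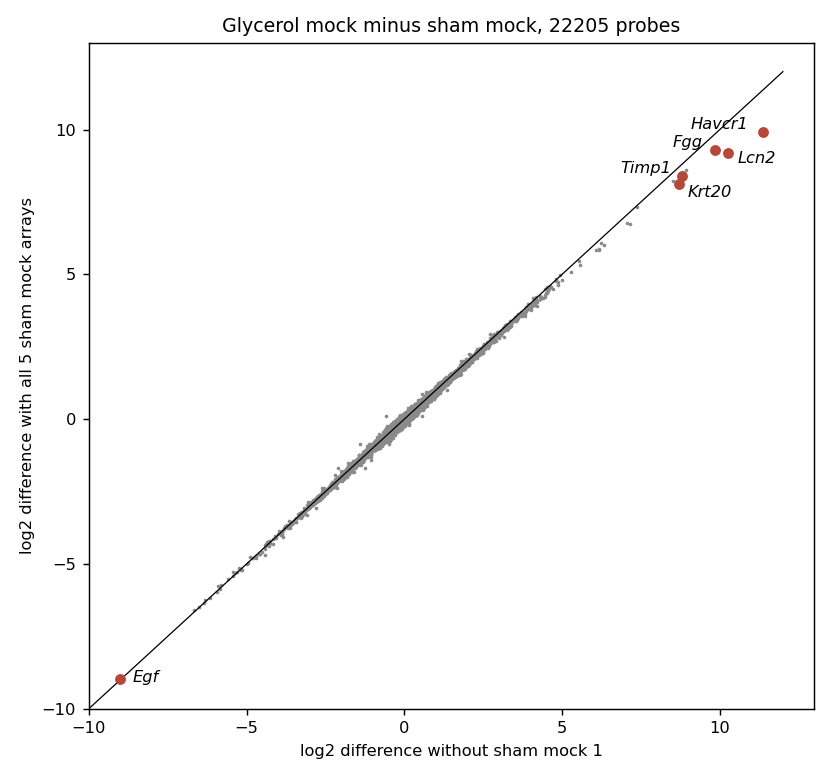
Each point is 1 of 22205 probes, with the log2 difference (glycerol mock minus sham mock) without sham mock 1 on the horizontal axis and with all 5 sham arrays on the vertical axis; the line marks equal values. Most points follow the line, and the rising injury genes Havcr1 (11.38 without the array, 9.93 with it), Lcn2 (10.27 and 9.20) and Krt20 (8.72 and 8.11, from a sham mean that is dim) lie below it, while Egf (-9.00 and -8.97) lies on it.

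Genes of injured tubule rose further than any other list examined. Of 24 measured tubular injury markers, 20 were higher and 1 lower (background 18.0% and 16.4%), with a median difference of 2.83, and 20 were higher and 0 lower without sham mock 1. Havcr1 encodes kidney injury molecule 1, a phagocytic receptor of damaged proximal tubule. Its values were 14.59 in sham mock 1, 7.74, 7.02, 7.00 and 7.52 in sham mock 2 to 5, and 17.93 (lowest), 18.77 (median) and 19.13 (highest) in the glycerol arrays. All glycerol arrays lay above all sham arrays, and the sham group spread mainly through its array 1. Lcn2, whose product NGAL binds bacterial iron carriers, read 13.70 in sham mock 1, between 7.75 and 8.91 in the other 4, and 18.28, 18.59 and 18.90 (lowest, median, highest) after glycerol. Krt20, an epithelial keratin, read 6.62 in sham mock 1 and a dim 2.97 to 4.06 in the others against 11.35 to 12.85 after glycerol. Timp1, an inhibitor of matrix proteases, read 5.17 in sham mock 1 and a dim 2.65 to 3.51 in the others against 11.14 to 12.70. In each of these genes sham mock 1 was the highest sham array and lay below every glycerol array.

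The remaining injury markers moved less than these. Sox9, a transcription factor of regenerating tubule, rose by 6.07 ± 0.34 (limma SE; adjusted p = 2.98e-15; 7 against 5 arrays in this and every later comparison of the groups), from 4.59 to 5.62 in the sham arrays to 9.68 to 11.92. Keratin partners of simple epithelium, Krt8 and Krt18, rose by 3.14 and 3.04, and Vim, the intermediate filament of mesenchyme and dedifferentiated tubule, by 2.97. Cd44, a hyaluronan receptor, rose by 3.79 and Clu, the secreted chaperone clusterin, by 3.55. Smaller gains were those of the adhesion genes Vcam1 (0.94) and Itgb6 (0.58), whose groups overlapped. Prom1 (-0.06 ± 0.18), Timp2 (-0.18 ± 0.15) and the cytokine gene Il18 (-0.36 ± 0.22) did not pass the test. Igfbp7, near the top of the scale at means of 19.32 and 18.97, was the member called lower (-0.36 ± 0.12, adjusted p = 0.0199), and this call ended without sham mock 1 (adjusted p = 0.0629) or without sham mock 2 (0.0529).

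**Figure D2:**
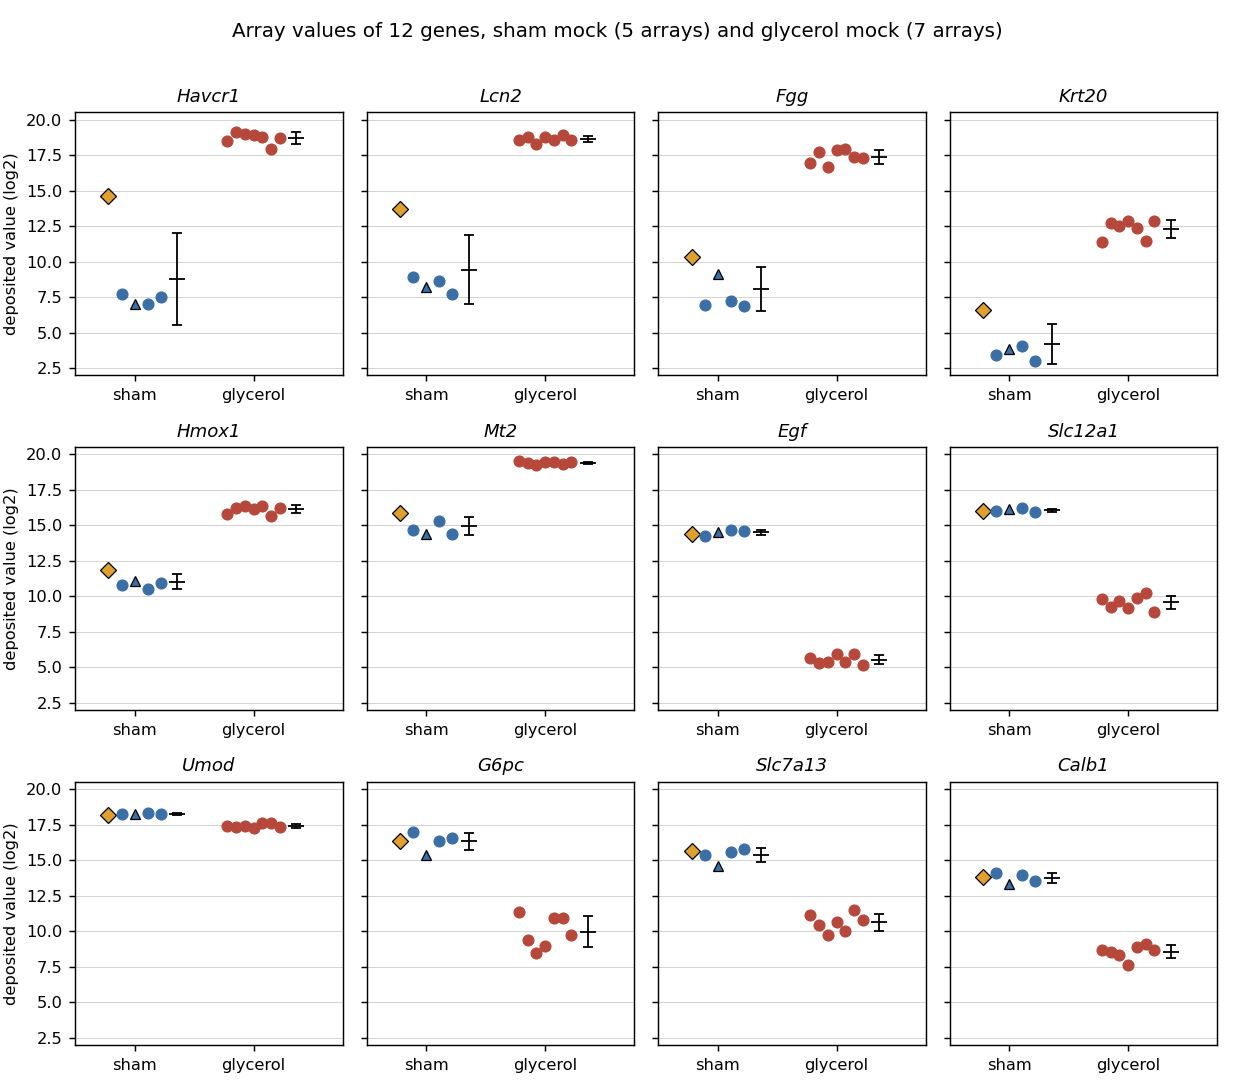
Deposited log2 values of 12 genes in each of the 5 sham mock arrays (blue; orange diamond, sham mock 1; triangle, sham mock 3) and 7 glycerol mock arrays (red), with the mean and SD of each group as black bars. Sham mock 1 lies above the other sham arrays and below every glycerol array for Havcr1 (14.59), Lcn2 (13.70), Fgg (10.31), Krt20 (6.62), Hmox1 (11.89) and Mt2 (15.87). It is within the range of the other sham arrays for Egf, Slc12a1, G6pc, Slc7a13 and Calb1 and is the lowest sham array for Umod (18.18).

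The fibrinogen genes rose, Fgg and Fga by more than 8 on the log2 scale. Fibrinogen, the clotting protein, is built from 3 chains that are made mainly by liver and that injured epithelia are known to switch on. Fgg read 10.31, 6.92, 9.10, 7.23 and 6.88 in sham mock 1 to 5 and 16.63, 17.34 and 17.94 (lowest, median, highest) after glycerol. Fga read 10.12, 8.01, 9.31, 9.13 and 7.95 in the same order against 16.40, 17.25 and 17.70. Fgb was dim in 4 sham arrays (4.09 to 4.67) and at 5.91 in sham mock 1, against 11.81, 13.84 and 14.01. Fgg and Fga thus rose by 9.30 ± 0.38 and 8.22 ± 0.29 (limma adjusted p = 3.31e-18 and 1.02e-19), with sham mock 1 and 3 the higher sham arrays in both. Fgb rose too (adjusted p = 9.56e-18), by a difference that rests on a dim sham mean. In all 3 genes the groups did not overlap. Liver's own markers moved in both directions. Alb, the albumin gene, read 8.38 to 9.09 in sham and 7.82 to 9.08 after glycerol (-0.17 ± 0.19, adjusted p = 0.57), while F2, Ahsg and Apoa1, which encode prothrombin, fetuin-A and apolipoprotein A-I, were dim in both groups and Apoa2 fell by 1.21. Of the 9 liver markers, Apoh (1.78) and Apob (0.97) were higher and Ttr (-2.70), Apoa2 and Itih1 were lower. The call of Itih1 (-0.43, adjusted p = 0.0471) was lost without sham mock 1 (0.0653) and without any of 7 other arrays (0.0552 to 0.161).

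The upstream sequences of the fibrinogen chains are shown because the chains moved together. These are the 250 bases before the annotated start on mouse GRCm38.p6, from RefSeq, and capitals mark the letters GTTAAT or their complement, a single core of the motif bound by HNF1, a factor of liver and tubule. Fga lies at chr3:83025903-83026152, plus strand, and Fgb at chr3:83049864-83050113, minus strand; both sequences read 5′ to 3′ toward the gene.
Fga: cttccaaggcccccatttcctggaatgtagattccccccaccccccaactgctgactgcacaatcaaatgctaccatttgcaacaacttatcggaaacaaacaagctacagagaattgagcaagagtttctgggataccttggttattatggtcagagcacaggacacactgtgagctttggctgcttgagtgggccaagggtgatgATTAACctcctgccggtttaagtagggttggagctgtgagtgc
Fgb: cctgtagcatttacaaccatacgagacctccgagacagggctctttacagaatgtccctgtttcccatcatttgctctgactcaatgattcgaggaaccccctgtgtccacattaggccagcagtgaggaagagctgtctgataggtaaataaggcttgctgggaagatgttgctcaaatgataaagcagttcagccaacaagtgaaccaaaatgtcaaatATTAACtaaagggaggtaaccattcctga
The match began at 43 bases before the start in Fga and at 29 in Fgb, and the Fgg window held none. Of 19143 windows of named genes, 5.83% held these letters, so the matches are a description and no sign of use.

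Nephron segments lost their transcripts from the proximal tubule to the collecting duct. Of 16 markers of the early proximal tubule, 15 were lower and 0 higher (median -1.51), and of 15 late proximal markers 13 were lower and 1 higher (median -2.64). All 12 thick ascending limb markers were lower (median -2.86), as were 11 of 13 distal convoluted and connecting tubule markers (1 higher, median -1.11), 11 of 11 principal cell markers (median -1.30) and 8 of 13 intercalated cell markers (median -0.77). Each count stands against a background of 16.4% lower. Without sham mock 1 the counts were 15, 13, 12, 11, 10 and 9 in the same order.

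In the early proximal tubule Slc5a12, a lactate carrier, fell by 3.65 ± 0.29 and Slc6a19, the carrier of neutral amino acids, by 3.55 ± 0.18. Gatm, the first enzyme of creatine synthesis, fell by 5.85 ± 0.29. Amn, which anchors the endocytic receptor cubilin, was the member not called (-0.48 ± 0.20, adjusted p = 0.0593). Lrp2, the gene of the endocytic receptor megalin that takes up filtered proteins, was named after its values were seen: it read 16.98 to 17.45 in sham and 15.57 to 16.19 after glycerol (-1.42 ± 0.13).

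In the late proximal tubule 1 of the 15 markers, Slc6a18, went against the 13 that fell. Slc7a13, a cystine and aspartate carrier of its last segment, read 15.67, 15.39, 14.58, 15.56 and 15.83 in sham mock 1 to 5 and 9.77, 10.68 and 11.50 (lowest, median, highest) after glycerol. Slc5a8, a carrier of short acids, fell by 4.59 and the oxysterol hydroxylase Cyp7b1 by 3.96. Slc6a18, a glycine carrier of the same segment, read 14.59, 15.01, 14.76, 15.04 and 14.80 in sham and 15.35, 15.61 and 15.96 after glycerol. It rose by 0.82 ± 0.14 (limma adjusted p = 2.43e-05; 0.76 without sham mock 1), with no overlap between the groups. Kap, an androgen-regulated transcript of proximal tubule, was at the top of the scale in both groups (19.42 to 19.59 and 19.10 to 19.43) and was not called (-0.21 ± 0.10, adjusted p = 0.123).

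In the thick ascending limb the spread between members was wide. Egf, the growth factor precursor made there and in the distal convoluted tubule, read 14.39, 14.29, 14.57, 14.71 and 14.59 in sham mock 1 to 5 and 5.17, 5.39 and 5.97 after glycerol, the largest fall of any named gene (-8.97 ± 0.14, adjusted p = 1.98e-28). Slc12a1, the salt cotransporter blocked by loop diuretics, read 15.92 to 16.22 in sham and 8.93, 9.70 and 10.25 after glycerol. Tmem207 fell from 8.47 to 9.15 to a dim 3.40 to 4.19. Umod, the gene of uromodulin, read 18.18 to 18.34 in sham and 17.26, 17.39 and 17.65 after glycerol, and fell by 0.82 ± 0.12 (adjusted p = 7.88e-07). Its sham mean was among those of at least 18, near the top of the scale, and whether this made its fall smaller was not tested. The groups did not overlap in any of the 12 members, where 9.85% of all probes were lower without overlap. Next to this segment lies the macula densa, whose markers were few: Ptgs2, a prostaglandin synthase gene, rose by 1.56 ± 0.25, while Nos1 (-0.09 ± 0.17) and the dim Pappa2 (0.03 ± 0.18) were not called.

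In the distal nephron Calb1, the calcium buffer calbindin, read 13.32 to 14.13 in sham and 7.65, 8.67 and 9.14 after glycerol (-5.18 ± 0.25). Slc8a1, the sodium-calcium exchanger, fell by 3.69 and the calcium buffer Pvalb by 2.87. Trpv5, the calcium channel of the same cells, went the other way, from 7.98 to 8.87 in sham to 8.68 to 9.77 (0.89 ± 0.18, adjusted p = 0.000146), with overlapping groups. Stk39, a kinase that activates salt cotransporters, was not called (-0.21 ± 0.16). In principal cells the water channels Aqp4 and Aqp3 fell by 2.58 and 2.44 and Hsd11b2, which shields the mineralocorticoid receptor from glucocorticoids, by 1.87. In intercalated cells the ammonia channel Rhcg fell by 2.78 ± 0.19, the proton pump subunit Atp6v1b1 by 2.28 and Aqp6 by 1.93. Their transcription factor Foxi1 (-0.23 ± 0.15) and the pump subunit Atp6v1g3 (-0.18 ± 0.14) were not called. Of 5 thin limb markers 2 were lower, Aqp1 (-2.89 ± 0.26) and Sptssb, which fell to a dim level.

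Podocyte markers moved in both directions. Of 11 measured, 3 were higher and 4 lower (63.6% called, against 34.4% of all probes), with a median of -0.33. Of these 11, 10 were above the dim level, and among all such probes 27.2% were higher and 24.1% lower. Nphs1, which encodes the slit diaphragm protein nephrin, read 9.05, 9.10, 8.86, 8.96 and 9.34 in sham mock 1 to 5 and 8.45, 9.11 and 9.48 after glycerol (-0.02 ± 0.16, adjusted p = 0.953). Tcf21 (-1.42 ± 0.15), a transcription factor, Clic5 (-1.14), Podxl (-0.60) and Thsd7a (-0.60) were lower, and Kirrel (0.78), Plce1 (0.53) and Synpo (0.43) were higher. Ptpro (-0.45 ± 0.20), Wt1 (-0.30 ± 0.16) and Cdkn1c (-0.33 ± 0.13) were not called, the last with dim means in both groups. Without sham mock 5, or without glycerol mock 2, the higher count was 1, since Plce1 (adjusted p = 0.0926 and 0.0567) and Synpo (0.102 and 0.0828) lost their calls. Of 13 endothelial markers 3 were higher and 5 lower (61.5% called). The higher ones included Cdh5 (0.93) and Pecam1 (0.89), the lower ones Ehd3 (-1.08), Tek (-1.02) and Kdr (-1.0). Ehd3 is a gene of glomerular capillaries, and Tek and Kdr encode receptors for angiopoietin and VEGF. Eng (-0.01 ± 0.16) and Plvap (-0.17 ± 0.13) were not called. Urothelial Krt5 rose from a dim mean, and Upk1a (-1.55) and Upk1b (-0.70) fell, which was 1 higher and 2 lower of 7.

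**Figure D3:**
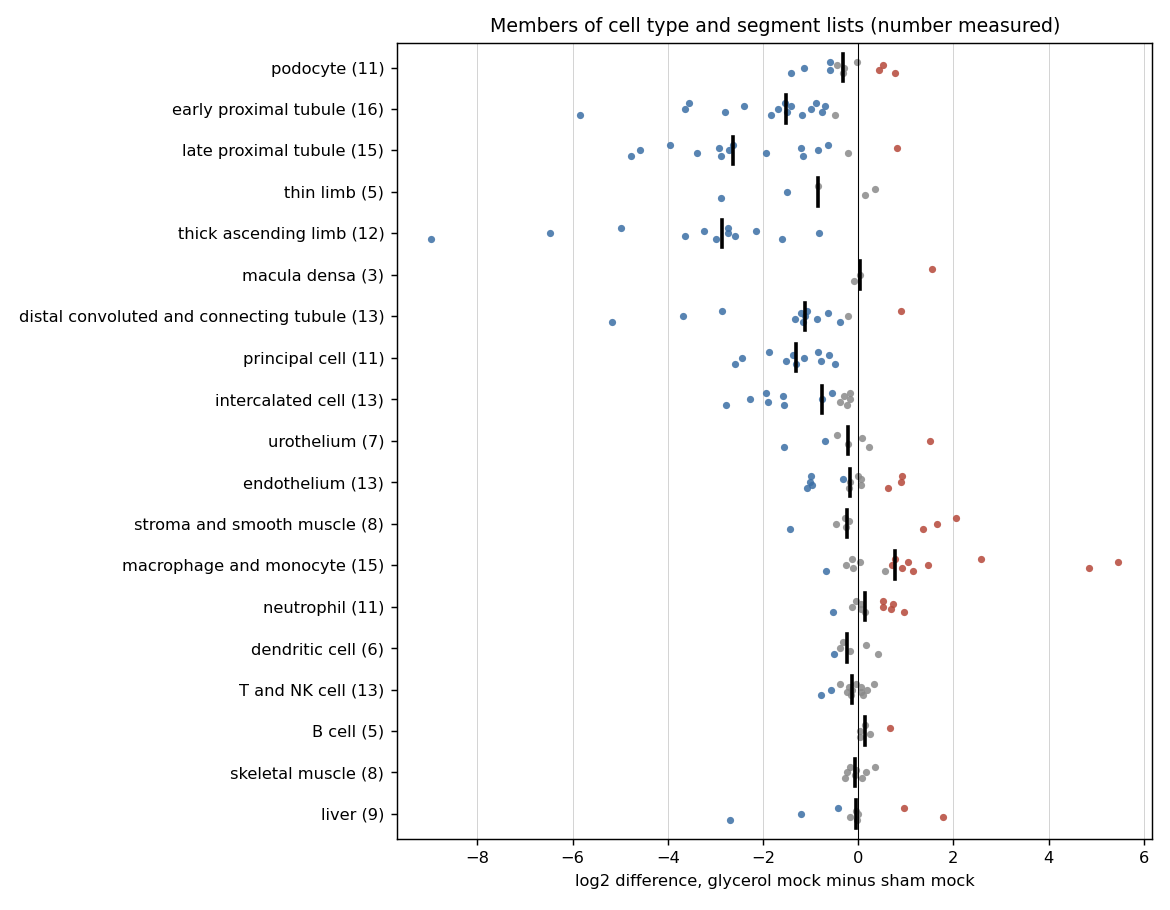
Log2 differences (glycerol mock minus sham mock) of the measured members of 19 cell type and segment lists, 1 point per gene, red for members called higher, blue for lower and grey for not called, with the median as a black bar. The thick ascending limb (median -2.86) and late proximal tubule (-2.64) lie furthest left, and the macrophage and monocyte list (0.78) furthest right.

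The transcription factors that shape the nephron were mostly lower. Of 18 measured, 15 were lower and 1 higher, with a median of -1.02, and the counts were the same without sham mock 1. Irx1 fell by 1.87 ± 0.21, Sim1 by 1.78 ± 0.14 and Esrrb from 5.94 to a dim 4.04. The exception was Pax8, a paired box factor of the developing and adult tubule. It read 11.67 to 11.78 in sham and 13.30, 13.56 and 13.66 after glycerol (1.76 ± 0.15, adjusted p = 6.82e-11), while its relative Pax2 was not called (-0.27 ± 0.15).

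Transporter families repeated the losses and held a few gains. Among 361 measured Slc genes 59 were higher and 144 lower. Of 24 Slc22 genes, carriers of organic ions and drugs, 19 were lower and 1 higher (median -1.43), led by Slc22a22 (-6.18 ± 0.27) and Slc22a7 (-3.39 ± 0.40). The groups overlapped in Slc22a7, where sham mock 3 read 9.09 and the other sham arrays 12.09 to 12.56. Close copies in this family may share probes, and how the array separates them was not checked. Of 27 sugar and phosphate carriers in Slc2, Slc5 and Slc34, 15 were lower and 2 higher. The gains were Slc2a1, the glucose carrier GLUT1 (2.44 ± 0.16), and Slc34a2, a phosphate carrier best known from lung and intestine. Slc34a2 read 5.05 to 5.79 in sham and 8.99, 9.57 and 10.06 after glycerol (3.98 ± 0.21). Its renal relative Slc34a1, named after its values were seen, fell by 1.49 ± 0.16 from 19.28. Amino acid carriers likewise split: Slc7a5 (2.84) and the cystine importer Slc7a11 (1.91) rose, while Slc7a12 (-5.29) fell, with 7 higher and 13 lower of 35. Among 46 mitochondrial carriers 5 were higher, led by the calcium-regulated Slc25a24 (3.96), and 20 lower, led by Slc25a42 (-4.27), a coenzyme A carrier. Without sham mock 3 the higher count was 3.

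Junction and channel families held changes in both directions. Of 32 claudins, the strands of tight junctions, 6 were higher and 6 lower, a share of 37.5% beside the 34.4% of all probes. Cldn1 read 8.15 to 8.97 in sham and 12.28, 12.83 and 13.19 after glycerol (4.21 ± 0.23), and Cldn4 rose by 3.95 ± 0.23. Cldn10 and Cldn8, of the thick limb and the collecting duct, fell by 2.59 and 2.38. Of 12 aquaporins 6 were lower and 0 higher, with Aqp11, which resides in the endoplasmic reticulum of proximal tubule, at -3.22 ± 0.15. Zinc carriers had 8 higher and 6 lower of 24 (58.3% called), and the lower count was 4 to 7 when single arrays were left out. Of these 24, 21 were above the dim level, where 27.2% of all such probes were higher and 24.1% lower, so the share called is near that. Slc39a1 rose by 2.56 and Slc39a8 fell by 2.28. Of 48 ABC transporters 11 were higher and 13 lower (50.0% called), and 34 were above the dim level. The drug exporters Abcb1b and Abcb1a rose by 2.34 and 2.09, and Abca13 fell by 5.73 ± 0.22. Of 22 subunits of the vacuolar proton pump 4 were higher, led by Atp6v0a1 (1.71), and 9 lower (59.1% called), and 21 were above the dim level.

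Genes of the respiratory chain were lower. Of 37 complex I subunits 36 were lower and 0 higher (median -0.88). The counts were 13 of 13 for complexes II and III (median -1.07), 13 of 18 for complex IV (-0.81) and 16 of 17 for ATP synthase (-0.78), again with 0 higher. Ndufs1, the iron-sulfur core of complex I, read 13.01, 13.06, 12.90, 13.15 and 13.19 in sham mock 1 to 5 and 11.59, 11.75 and 12.03 after glycerol (-1.28 ± 0.13). Cox7a1, a muscle-type subunit of complex IV, fell by 2.24 and the others by 1.16 or less. Of 14 genes of the citric acid cycle 11 were lower, among them Fh1 (-1.28) and Sdha (-1.22), while Cs, citrate synthase, was not called (-0.14 ± 0.13). Mitochondrial ribosomal proteins did not follow: 9 of 76 were higher and 12 lower, a share of 27.6% below the 34.4% of all probes.

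Transcripts of fuel-using enzymes were lower. All 16 measured genes of amino acid breakdown were lower without overlap of the groups (median -1.60), from Hpd (-3.86 ± 0.26), of tyrosine breakdown, to a smallest change of -0.75. Of 9 gluconeogenesis and fructose genes 8 were lower (median -2.40). G6pc, the last enzyme of glucose release, read 16.37, 16.99, 15.38, 16.38 and 16.58 in sham mock 1 to 5 and 8.50, 9.74 and 11.34 after glycerol, a wider spread than in sham. Pck1 fell by 4.21 ± 0.20, the glucose-6-phosphate carrier Slc37a4 by 3.66, the fructose carrier Slc2a5 by 2.71, Khk by 2.40, Fbp1 by 1.89, Pcx by 1.62 and Tkfc by 0.55. The mitochondrial isoform Pck2 was not called (0.22 ± 0.18). Of 17 fatty acid oxidation genes 10 were lower and 1 higher (median -0.58). The coactivator Ppargc1a fell by 2.21 ± 0.18 and Acadm by 1.87, whereas the carnitine transferase Cpt1a (0.15 ± 0.16) and Hadha (-0.12 ± 0.14) were not called. The single gain, Acadl (0.35, adjusted p = 0.0362), was lost without sham mock 1 (0.112), sham mock 5 (0.0988) or glycerol mock 3, 5 or 7 (0.0597 to 0.0899). Plin2, which coats lipid droplets, rose by 6.03 ± 0.20, from 11.67 in sham mock 1 and 9.99 to 10.35 in the others to 16.05 to 16.85.

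Genes of NAD synthesis, of the tryptophan route and of salvage, were also lower, with 10 of 15 down and 1 up (median -0.88). Acmsd, which diverts the pathway, read 12.82 to 13.74 in sham and 7.91, 8.45 and 10.07 after glycerol, and Afmid and Haao fell by 2.81 and 2.70. The salvage enzyme Nampt was not called (-0.37 ± 0.15, adjusted p = 0.0584), and the gain of Nnmt (0.66, adjusted p = 0.029) was lost without sham mock 1, 2 or 3 (0.0532, 0.0954 and 0.074) or glycerol mock 4 or 7 (0.0664 and 0.0501). Cholesterol synthesis had 8 lower and 2 higher of 17 (1 to 3 higher when single arrays were left out): Cyp51 fell by 2.70 and Idi1 by 2.28, while Msmo1 rose by 1.55. Glycolysis had 8 higher and 3 lower of 15, and its isoforms parted. Hk2 rose from a dim 4.59 to 6.24 as Hk1 fell by 0.50. The lactate exporter Slc16a3 rose by 1.61, and Pfkm fell by 1.87. Gapdh read 17.95 to 17.99 in sham and 17.80 to 18.15 after glycerol (0.04 ± 0.10). In the list of 12 genes that respond to low oxygen 7 were lower and 2 higher: Bnip3 (-1.52), Vegfa (-1.25) and Pdk1 (-1.13) fell. The count depends on which genes were listed. Slc2a1, Hk2, Slc16a3 and Hmox1, which rose, were counted in other lists and not in this one. Hif1a, the oxygen-sensing factor, rose by 0.82 ± 0.15 and the vasodilator peptide gene Adm by 1.74.

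Detoxification families held genes that fell and genes that rose. Of 99 cytochrome P450 genes 28 were lower and 11 higher, a share of 39.4% beside the 34.4% of all probes, and 49 were dim in both groups. Cyp2j11 fell by 3.75 ± 0.15. Cyp4a12b, one of the close copies that make the vasoconstrictor 20-HETE in male kidney, read 12.62, 12.27, 12.98, 12.87 and 12.11 in sham mock 1 to 5 and 15.90, 16.11 and 16.16 after glycerol. It rose by 3.51 ± 0.21 (adjusted p = 1.15e-14) and its copy Cyp4a12a by 2.92 ± 0.31, and reads of one copy by the probes of the other were not checked. Of 10 glucuronosyltransferases 7 were lower and 0 higher, led by Ugt3a1 (-2.22). Glutathione transferases had 11 higher and 6 lower of 23, with the membrane enzyme Mgst1 higher (2.83) and Gstt2 (-2.16) lower. Among 21 aldehyde dehydrogenases 4 were higher and 9 lower, with Aldh1a2, which makes retinoic acid, higher (4.56 ± 0.22) and Aldh4a1, of proline breakdown, lower (-2.62).

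Heme and antioxidant genes rose. Of 20 heme and iron genes 11 were higher and 3 lower (10 and 3 without sham mock 1). Hmox1, heme oxygenase, read 11.89, 10.78, 11.09, 10.51 and 10.96 in sham mock 1 to 5 and 15.68, 16.22 and 16.40 after glycerol (5.08 ± 0.19, adjusted p = 6.18e-19; 5.29 without sham mock 1). Cp, a ferroxidase, rose by 2.59 ± 0.17. Hp, whose product haptoglobin binds free hemoglobin, was at 3.84 to 4.99 in sham and spread from 5.22 to 8.89 after glycerol (median 6.44). Ncoa4, the receptor that delivers ferritin for breakdown, fell by 0.89 and the iron sensor Aco1 by 0.62. Fth1, ferritin heavy chain, lay at 19.62 and 19.69, near the highest value on the arrays, and was not called (0.07 ± 0.10). Of 16 NRF2 and metallothionein genes 13 were higher and 1 lower (median 1.69). Mt2, which binds metals, read 15.87 in sham mock 1 and 14.39 to 15.31 in the others against 19.29, 19.44 and 19.53. Srxn1 rose by 4.21 ± 0.20, Pgd by 2.98 and the reductase Akr1b8, outside the list, by 5.87. Me1 fell by 0.68 and Prdx1 (0.18 ± 0.11) and Gclm (0.27 ± 0.13) were not called.

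Immediate early genes were higher at 24 h. Of 18 immediate early genes 16 were higher and 0 lower (median 2.32). Myc, which drives growth and ribosome synthesis, read 9.80, 8.41, 8.61, 8.0 and 7.62 in sham mock 1 to 5 and 14.20, 14.35 and 14.48 after glycerol (5.85 ± 0.24). Egr2 rose by 3.88 and Klf6 by 3.79, while Egr3 (-0.31 ± 0.13) and the dim Fosb (0.37 ± 0.18) were not called. Genes of EGF, IGF and HGF signalling had 4 higher and 6 lower of 15 (median -0.03). Nrg1, whose product neuregulin binds the receptors of Erbb3 and its relatives, rose by 3.96 ± 0.17, and Hbegf, a ligand of the EGF receptor, by 2.42. The receptor gene Egfr rose by 1.29 as Egf fell. Erbb3 fell by 1.31 and Igf1 by 1.62, whereas Met (0.26 ± 0.16) and Igf1r (-0.01 ± 0.17) were not called. Feedback phosphatases of MAP kinases had 10 higher and 4 lower of 24 (58.3% called, beside 34.4% of all probes), with Dusp5 at 3.38 and Dusp15 at -3.05. Of these 24, 21 were above the dim level, where 27.2% of all such probes were higher and 24.1% lower. Among 17 Kruppel-like factors 8 were higher, with Klf5 up 2.54, and 4 lower, with Klf15, a glucocorticoid-induced factor, at -2.64.

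Genes of the translation machinery rose together. All 15 measured aminoacyl-tRNA synthetases were higher (median 1.42, from 0.61 to 1.85), 13 of them without overlap, against a background of 18.0% higher and 11.3% higher without overlap. Iars and Sars, which charge isoleucine and serine, rose by 1.85 and 1.77. Of 60 cytosolic ribosomal proteins 49 were higher and 0 lower (median 0.70), with Rps13 (1.46) and Rps20 (1.39) highest. Of 48 initiation factors 32 were higher and 1 lower. Eif6, which keeps ribosomal subunits apart, read 10.10 to 10.59 in sham and 13.40, 13.90 and 14.07 after glycerol (3.48 ± 0.17), and the translation brake Eif4ebp1 rose by 3.17. Among 32 DEAD box helicases 17 were higher, with the nucleolar Ddx21 up 2.67. Of 39 proteasome subunits 27 were higher and 0 lower (median 0.57). Without sham mock 1 the count of higher members in each of these 5 families was the same or smaller by 1.

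Stress responses beside them were mixed. The unfolded protein and integrated stress response list had 11 higher and 1 lower of 16. The amino acid synthesis genes Asns and Psat1 rose by 3.29 and 3.20 and the factor Xbp1 by 1.91, whereas Herpud1, of protein disposal, fell by 1.37 and the chaperone Calr was not called (-0.09 ± 0.13). Heat shock genes had 8 higher of 11, with the small heat shock protein Hspb1 up 3.64 and Cryab up 1.33. Hspd1 (-0.12 ± 0.13) and Hsph1 (0.11 ± 0.16) were not called. Of 16 p53 targets 8 were higher and 1 lower: the cell cycle inhibitor Cdkn1a rose by 5.33 ± 0.25, Btg2 by 2.62 and Tnfrsf10b by 2.02, and the sestrin Sesn1 fell by 1.83. Of 18 cell death genes 9 were higher and 0 lower. Mlkl, the executor of necroptosis, rose by 2.73, the survival gene Bcl2l1 by 2.49 and Acsl4, which loads membranes with oxidizable lipids, by 2.15. Gpx4, which protects such lipids, was not called (-0.07 ± 0.13), nor was Bcl2 (0.24 ± 0.16).

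**Figure D4:**
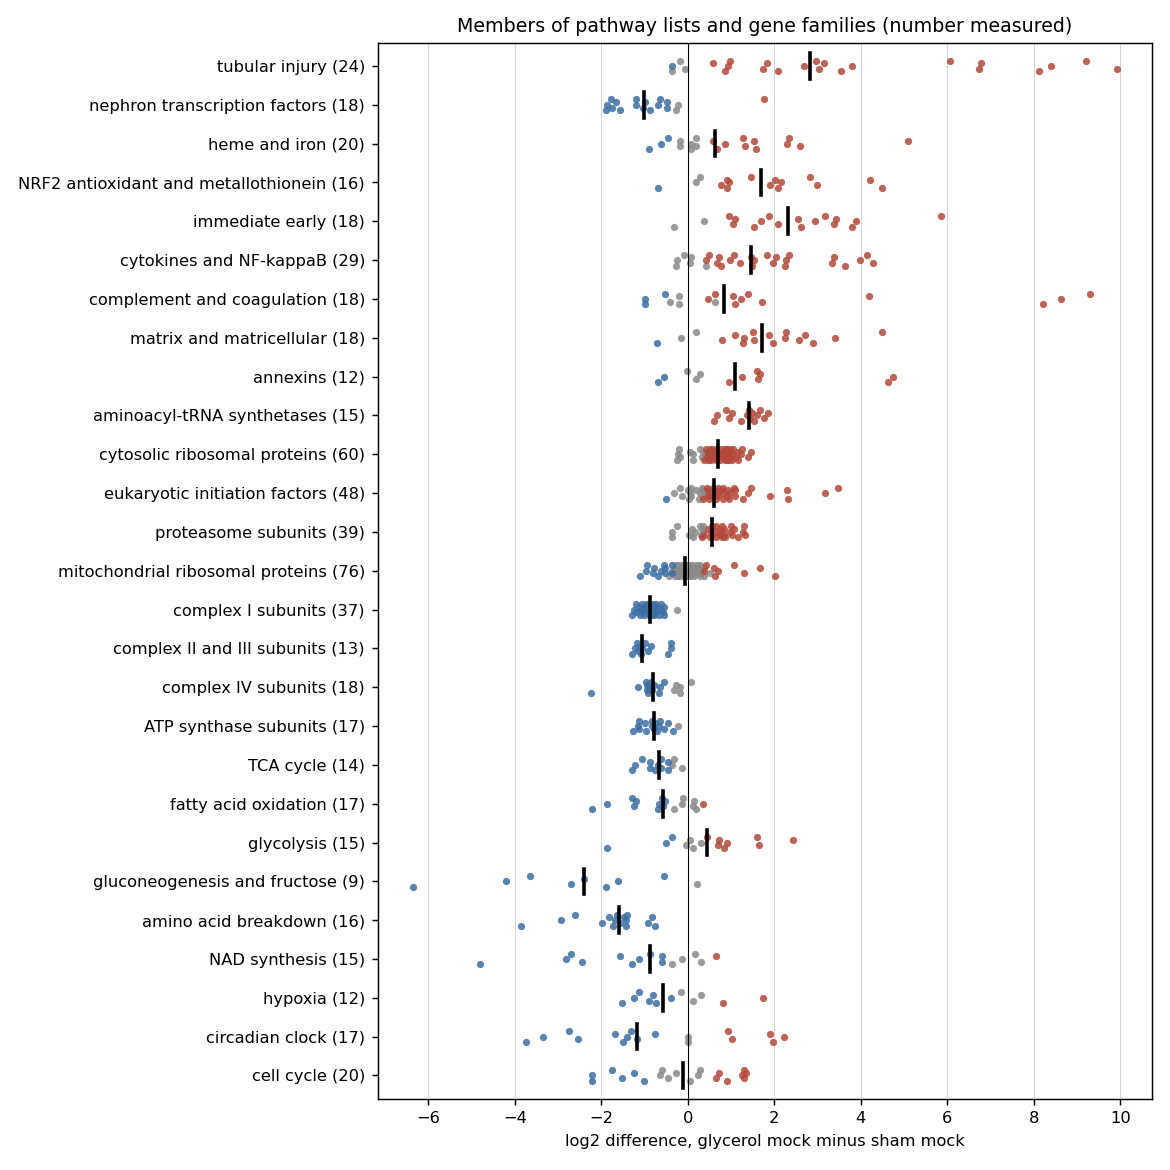
Log2 differences (glycerol mock minus sham mock) of the measured members of 27 pathway lists and gene families, drawn as in the plot of cell type lists (red, called higher; blue, called lower; grey, not called; black bar, median). The 15 aminoacyl-tRNA synthetases all lie right of 0 (0.61 to 1.85), the 37 complex I subunits all lie left of it (-1.28 to -0.25), and tubular injury genes reach 9.93.

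Matrix genes rose. Of 18 matrix and matricellular genes 15 were higher and 1 lower, the same without sham mock 1. Ccn1, a matricellular signal, rose by 4.50 ± 0.23, Tnc, tenascin C, by 3.40 and Col3a1 by 2.90, while the protease Mmp2 fell by 0.72. Collagens had 10 higher and 5 lower of 42 (35.7%, beside 34.4% of all probes), and type IV, the sheet of basement membranes, was split by chain. Col4a3, of the mature glomerular membrane, read 12.01 to 12.62 in sham and 9.98, 10.32 and 10.52 after glycerol (-1.94 ± 0.16), and Col4a4 fell by 1.70. The widely expressed chains Col4a1 and Col4a2, named after their values were seen, rose by 1.51 ± 0.20 and 1.87 ± 0.15. Of 29 integrins 13 were higher and 4 lower, with differences from -1.20 to 2.58. Itga3, up 2.31, did not have the largest gain. Of 12 annexins, which bind membranes in the presence of calcium, 7 were higher and 2 lower. Anxa2 read 8.81 to 9.60 in sham and 13.51, 14.00 and 14.21 after glycerol (4.75 ± 0.17). Its partner S100a10, with which it forms a plasminogen receptor, rose by 3.80 ± 0.16. Actins, tubulins and myosins had 20 higher and 4 lower of 62 (38.7%). The tubulins Tubb6 and Tubb2a rose by 4.22 and 4.15, and the motor Myo5a fell by 2.79. The cornified envelope genes Sprr2f and Sprr1a rose by 4.36 and 3.15, with 6 higher of 13; close copies in this family may share probes.

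The upstream windows of Plaur, the urokinase receptor that rose by 6.74 ± 0.29, and of Anxa2 are shown because both held the letters TGANTCA of an AP-1 site, in capitals. They are 250 bases before the start on GRCm38.p6, from RefSeq: chr7:24462233-24462482, plus strand, for Plaur and chr9:69453433-69453682, plus strand, for Anxa2.
Plaur: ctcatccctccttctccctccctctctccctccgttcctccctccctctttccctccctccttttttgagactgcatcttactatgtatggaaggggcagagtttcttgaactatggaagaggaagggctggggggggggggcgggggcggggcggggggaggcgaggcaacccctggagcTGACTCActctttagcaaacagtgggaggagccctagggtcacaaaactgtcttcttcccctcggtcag
Anxa2: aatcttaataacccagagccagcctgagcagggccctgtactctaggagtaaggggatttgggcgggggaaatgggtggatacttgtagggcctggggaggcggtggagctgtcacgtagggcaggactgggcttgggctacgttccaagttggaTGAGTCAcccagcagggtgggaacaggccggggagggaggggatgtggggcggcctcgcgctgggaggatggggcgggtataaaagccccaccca
The matches began 69 and 95 bases before the start. Windows of genes called higher by at least 2 held the letters in 9.74% of 349, those called lower by at least 2 in 4.31% of 371 and those of all named genes in 6.26% of 19143. The other motifs searched, on both strands, gave these shares for higher, lower and all windows. The antioxidant response core TGACNNNGC was in 15.2%, 10.8% and 10.7%, and TGACGTCA, the cyclic AMP element, in 3.15%, 0.539% and 1.99%. CACGTG, the E-box of clock and Myc factors, was in 5.73%, 7.01% and 6.88%, and TTANGTAA, the D-box of clock output factors, in 0.287%, 3.77% and 1.85%. GTTAAT was in 5.73%, 9.97% and 5.83%, the full palindromic HNF1 motif in 0%, 0% and 0.00522%, and CAAAGTCCA, an HNF4-like repeat, in 0.573%, 1.08% and 0.444%. TGATGNAA, an ATF4 composite, was in 1.72%, 2.96% and 2.94%, and the heat shock element in 0.287%, 0.539% and 0.407%. Several of these shares rest on few windows: the D-box in higher windows on 1, TGACGTCA in lower windows on 2 and TGATGNAA in higher windows on 6. For higher and lower windows CAAAGTCCA rests on 2 and 4 and the heat shock element on 1 and 2. The full HNF1 motif was in 1 window of all. A gene can have several windows, and the 349 higher windows came from 261 genes. The median GC content was 59.2%, 54.8% and 56.0%. These shares are descriptions, and motifs may overlap: an AP-1 site differs from TGACGTCA by its centre.

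Cytokine and NF-kappaB genes rose. Of 29 cytokine and NF-kappaB genes 23 were higher and 0 lower (22 without sham mock 1). Csf1, the macrophage growth factor, read 10.44, 9.81, 9.56, 9.75 and 9.08 in sham mock 1 to 5 and 12.70, 14.50 and 14.65 after glycerol (4.29 ± 0.32). Lif rose from a dim mean and the oncostatin M receptor gene Osmr by 3.98. Chemokines had 12 higher and 8 lower of 38 (52.6% called, beside 34.4% of all probes), and 24 were above the dim level. Cxcl1, which draws neutrophils, rose from a dim mean and Ccl9 by 3.27. Cxcl12, which retains leukocytes and progenitors, read 14.50 to 14.77 in sham and 10.36, 10.81 and 11.65 after glycerol (-3.68 ± 0.17). In the TNF family the TWEAK receptor Tnfrsf12a rose by 6.77 ± 0.20 and Tnfrsf23 by 4.10, and Tnfsf10, the death ligand TRAIL, fell by 2.50. Of 18 complement and coagulation genes 11 were higher and 3 lower: C1s1 (-0.99), Cd55 (-0.98) and Serping1 (-0.52) fell, and Cfb was not called (-0.21 ± 0.17). Serpins had 9 higher and 11 lower of 55 (36.4%), with the acute-phase Serpina3n up from a dim mean and Serpina1d, one of several close copies, at -2.29.

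Among macrophage and monocyte markers 9 of 15 were higher and 1 lower. Lgals3 and Cd14 led with 5.46 ± 0.19 and 4.85 ± 0.29, and both are also made by injured tubule. Adgre1, the macrophage antigen F4/80, read 5.69, 5.65, 4.92, 6.21 and 5.91 in sham mock 1 to 5 and 5.30, 5.8 and 6.12 after glycerol (0.03 ± 0.20, adjusted p = 0.928), Mrc1 was not called (-0.11 ± 0.29) and Csf1r fell by 0.68. The other members called higher are not named here. The list's mean level was 5.83 to 6.29 in sham and 7.10 to 7.63 after glycerol. Lgals3 and Cd14 are part of that mean, so it does not stand for macrophages alone. The median difference of the members was 0.78. Neutrophil markers had 5 higher and 1 lower of 11 (54.5% called, beside 34.4% of all probes), or 4 and 1 without sham mock 1. Of the 11, 5 were dim in both groups. The higher members were S100a8 and Mmp8, dim in both groups, Retnlg, dim in sham, S100a9 (0.68) and Csf3r (0.51). Csf3r lost its call without sham mock 1 (adjusted p = 0.0687), sham mock 3 or 5 (0.0554 and 0.0788) or glycerol mock 2 or 4 (0.0733 and 0.066), and Retnlg without sham mock 3 or 5 (0.0674 and 0.0701) or glycerol mock 1 or 4 (0.0585 and 0.0517). Elane was called lower (-0.52) to a dim mean, a call that ended without sham mock 3 (0.097), and Camp, Cxcr2, Mmp9, Mpo and Ngp were not called. The list's mean level was 4.07 to 4.32 in sham and 4.20 to 4.71 after glycerol. Its higher count was 3 without sham mock 3, without sham mock 5 or without glycerol mock 4. In the T and NK cell list Cd8a (-0.79) and Cd4 (-0.58) were lower and 0 of 13 higher, with 9 dim in both groups. The 6 dendritic cell markers and the 5 B cell markers were dim in both groups. Of the 8 skeletal muscle markers, listed as a check for RNA from the injected tissue, 0 were called. Of these 8, 6 were dim in both groups, so the check is weak. Interferon-stimulated genes had 5 higher and 1 lower of 16 (37.5%, beside 34.4% of all probes), led by Oasl2 (0.92), or 3 higher without sham mock 5. Stromal genes of contraction rose, Tagln by 2.05 and Acta2 by 1.66, with Pdgfrb higher (1.37), Dcn lower (-1.44) and 4 of 8 not called.

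Clock genes moved in both directions. Of 17, 5 were higher and 10 lower (median -1.17), the same without sham mock 1. Dbp, an output factor, read 17.26, 17.02, 16.02, 16.21 and 17.11 in sham mock 1 to 5 and 12.30, 13.07 and 13.89 after glycerol (-3.75 ± 0.30). Hlf fell by 3.35 and Per3, a repressor of the loop, by 2.75. The activators Arntl and Npas2 rose by 2.22 and 1.97 and the repressor Bhlhe40 by 1.90, while Clock (0.00 ± 0.17) and Cry1 (0.01 ± 0.16) were not called. The time of day at which each kidney was taken is not given in the sources used here, and its part in the result was not tested. The Per3 window, chr4:151044666-151044915, minus strand, on GRCm38.p6 from RefSeq, is shown for its 2 D-boxes, TTANGTAA, in capitals.
Per3: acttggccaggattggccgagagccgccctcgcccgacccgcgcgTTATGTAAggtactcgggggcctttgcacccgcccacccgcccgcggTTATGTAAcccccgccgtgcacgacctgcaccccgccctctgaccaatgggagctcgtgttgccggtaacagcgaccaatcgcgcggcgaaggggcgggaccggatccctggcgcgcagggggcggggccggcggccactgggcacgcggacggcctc
They begin 205 and 158 bases before the start.

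Cell cycle genes moved in both directions, and 1 sham array weighed on them. Of 20, 7 were higher, 6 lower and 7 not called (65.0% called, beside 34.4% of all probes). In 0 of them were the groups free of overlap, where 11.3% of all probes were higher and 9.85% lower without overlap. Among the higher members Mcm4 rose by 1.34, Mcm3 by 1.30 and Mcm2, part of the replicative helicase, by 1.29 ± 0.19. Among the lower members Mki67, the Ki-67 antigen, read 9.59, 10.09, 11.66, 7.41 and 8.29 in sham mock 1 to 5 and 6.28, 7.26 and 8.49 after glycerol (-2.21 ± 0.51, adjusted p = 0.000721). Ccnb2 fell by 2.21 ± 0.42 and Ccna2, cyclin A2, by 1.76 ± 0.43. Sham mock 3 was the highest sham array in the 20 genes, with a mean level of 8.71 against 6.11 to 7.23 in the other 4 and 6.50 to 7.18 in the glycerol arrays. Without it 8 were higher and 3 lower. Mki67 (-1.65, limma adjusted p = 0.00539), Ccnb2 (-1.77, 0.000637) and Ccna2 (-1.22, 0.0108) kept their calls. Each of these calls was lost, however, under 1 of the 21 alternative settings given below, which was not the removal of a single array. Without sham mock 3 Bub1, Cdk1 and Plk1 lost their calls (adjusted p = 0.0509, 0.303 and 0.273). The calls of Cdk1 and Plk1 were also lost without several other single arrays (0.0507 to 0.111). Pcna, the replication clamp, rose by 0.72 with all arrays and by 1.11 without sham mock 3 (adjusted p = 4.21e-08), while its difference of 0.59 without sham mock 1 was not called (0.0527), nor was that without sham mock 4 (0.0611). These last 4 genes were named after their values were seen. Without sham mock 4 the lower count was 8.

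**Figure D5:**
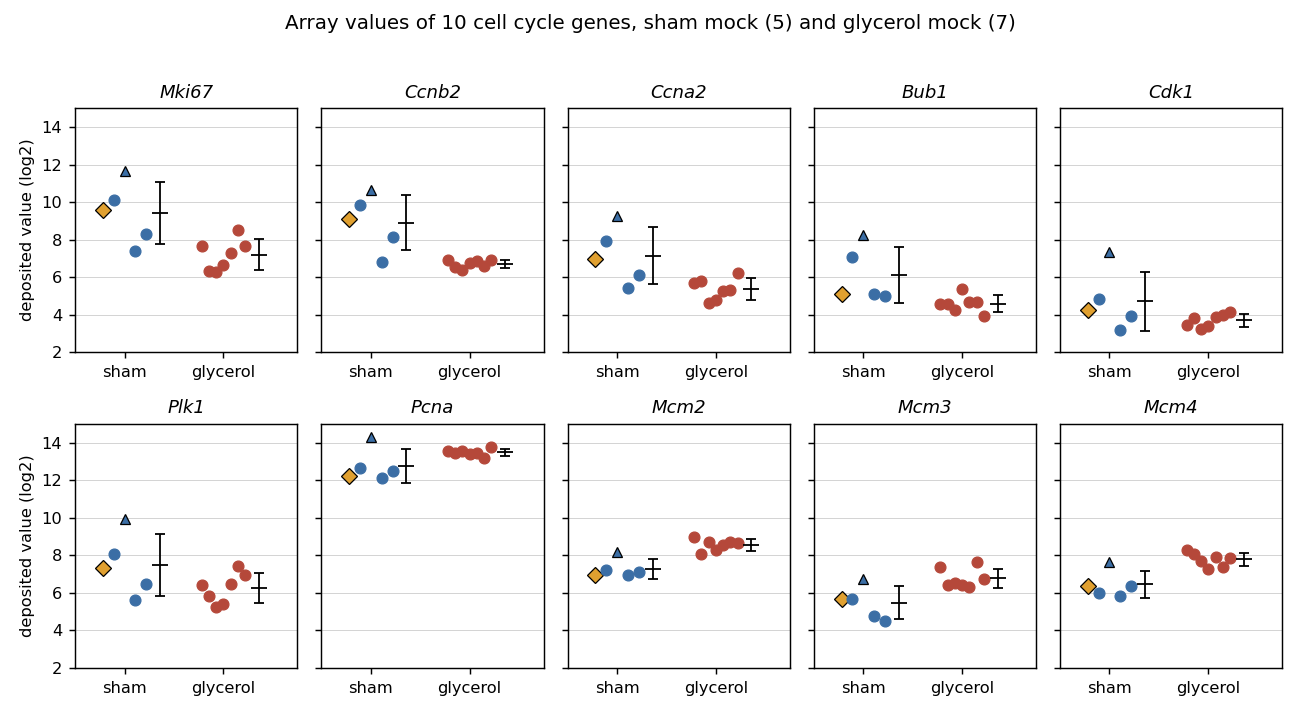
Deposited log2 values of 10 cell cycle genes in the 5 sham mock arrays (blue; orange diamond, sham mock 1; triangle, sham mock 3) and the 7 glycerol mock arrays (red), with the mean and SD of each group as black bars. Sham mock 3 is the highest sham array in each, at 11.66 for Mki67 and 14.34 for Pcna. The glycerol mean lies lower for Mki67 and Ccnb2 and higher for Mcm2 to Mcm4, and the groups overlap in every gene drawn.

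Whether the response differed when anti-miR-22 replaced the mock was tested as the difference between the glycerol effects, over all 24 arrays. It was called in 85 of 22205 probes (0.383%; 46 with a higher effect under anti-miR-22 and 39 with a lower one). Zbtb16, a transcription factor gene, fell by 0.76 with mock, a call lost without any of 8 single arrays (adjusted p 0.052 to 0.126), and its effect differed by 2.82 ± 0.41 (limma adjusted p = 0.00135), with means of 7.56 in sham and 9.62 in glycerol arrays under anti-miR-22. Ttpa, the vitamin E transfer protein, rose by 3.03 with mock, from 7.32 to 8.61 to 10.45 to 11.90, and the effect was larger by 1.74 ± 0.34 with anti-miR-22 (adjusted p = 0.021). Slc15a3, a peptide carrier of lysosomes, rose by 2.47 with mock and by 0.77 with anti-miR-22, a difference of -1.70 ± 0.26 (adjusted p = 0.00191). Pim3 (1.5), Golm1 (1.46) and Rgcc (1.44) had higher and Plch1 (-1.56), Dctn4 (-1.39) and Ddc (-1.32) lower effects with anti-miR-22. The call of Plch1 was lost without any of 8 single arrays (adjusted p 0.054 to 0.0825). Havcr1 (1.85 ± 1.03, adjusted p = 0.478), Lcn2 (0.88 ± 0.77), Fgg (0.69 ± 0.54), Hmox1 (0.04 ± 0.27), Egf (-0.48 ± 0.20, adjusted p = 0.302) and Umod (0.10 ± 0.16) were not called in this test. The values of Havcr1 and Lcn2 include sham mock 1, which read 14.59 and 13.70 and so made their glycerol effects with mock smaller. Their differences without that array are not given here, so neither size is read as a tendency. Leaving out single mock arrays gave between 34 called probes (without sham mock 3) and 138 (without glycerol mock 3), with 67 without sham mock 1. The count was also moved by leaving out sham mock 2 (51), 4 (56) or 5 (54) or glycerol mock 5 (39).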

How the data were processed

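The authors deposited normalized log2 values, 1 for each probe and array. The submitters' processing notes mention RMA and Partek 6.4, with neither role nor order. RMA subtracts background, brings arrays to a common distribution and shrinks differences among dim probes. Of 22206 lines, 1 with missing values was left out. Of 22205 probes 19572 had 1 gene symbol and 2633 none in GEO's platform annotation, naming 19505 genes, 55 of them by several probes, for which the brightest was used. A limma 3.58.1 model (lmFit and eBayes, R 4.3.3) held 4 group means over the 24 arrays. Tests were two-sided, with Benjamini-Hochberg adjustment across the probes. Arrays have no read depth, and their number limits the precision.

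The members and lists were chosen with earlier results of these data known, so their counts are descriptions and no list was tested. The 46 cell type and pathway lists held 673 genes, of which 611 were measured, 2 by an older name. The spelling of 2 listed genes and the pattern of 1 of 44 families were changed after the files were seen. Genes could be named if among the 15 highest or 15 lowest without dim means, up to 3 called per direction and 2 not called per list, 2 per direction per family, 10 fixed injury genes, all members of 6 short lists, or the 5 highest and 5 lowest called differences between glycerol effects; 8 others are named in the text as chosen after their values were seen. Alternatives were other moderation, the 12 mock arrays alone, array weights, renormalization or centring, probe filters, a size threshold, an exact rank test, a replicate block and leaving out each mock array. The tests were checked on simulated data. Promoter and microRNA sequences are RefSeq's (GRCm38.p6), and oligonucleotide sequences are from the labels.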

Additional observations from a re-analysis of the deposited data

Results flagged for a closer look

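In 580 groups of array values, for the genes named above in the sham mock and the glycerol mock arrays, 39 had a highest or lowest array whose gap to its nearest neighbour, as a share of the group's whole range, passed Dixon's critical value; chance passes about 5% of groups. Each is given with that array's log2 value, the range of the other arrays of its group and the share. Glycerol mock 1 was highest in Timp2 (10.53 against 9.66 to 9.96, 0.652) and lowest in Slc25a24 (10.87 against 11.36 to 11.67, 0.605). Glycerol mock 3 was lowest in Pck1 (10.51 against 11.31 to 11.90, 0.574) and Slc16a3 (6.00 against 6.53 to 6.79, 0.672). Glycerol mock 5 was lowest in Cyp4a12b (15.90 against 16.05 to 16.16, 0.585) and Podxl (8.95 against 9.96 to 10.27, 0.766). Glycerol mock 6 was highest in Apoa2 (6.07 against 4.59 to 5.05, 0.687), Pck2 (7.50 against 6.31 to 6.83, 0.568) and Ugt3a1 (15.27 against 14.17 to 14.65, 0.568) and lowest in Bcl2l1 (12.14 against 12.88 to 13.25, 0.668), Ccn1 (13.91 against 14.58 to 14.91, 0.673), Cldn4 (11.38 against 12.03 to 12.50, 0.58), Fth1 (19.50 against 19.70 to 19.75, 0.804), Gapdh (17.80 against 18.01 to 18.15, 0.581) and Pdk1 (6.81 against 8.39 to 8.99, 0.724). Glycerol mock 7 was lowest in Slc6a19 (11.11 against 11.76 to 12.04, 0.694). Sham mock 1 was highest in Havcr1 (14.59 against 7.00 to 7.74, 0.902), Hif1a (13.62 against 12.94 to 13.13, 0.714), Lcn2 (13.70 against 7.75 to 8.91, 0.805), Plin2 (11.67 against 9.99 to 10.35, 0.785) and Tnfrsf12a (9.88 against 8.38 to 8.72, 0.773). Sham mock 2 was lowest in Esrrb (5.53 against 5.96 to 6.13, 0.719), Lrp2 (16.98 against 17.32 to 17.45, 0.719) and Slc34a2 (5.05 against 5.59 to 5.79, 0.727). Sham mock 3 was highest in Aqp3 (11 against 10.01 to 10.24, 0.772), Ccn1 (10.74 against 9.86 to 10.03, 0.801), Cp (10.76 against 10.12 to 10.29, 0.733), Mcm2 (8.17 against 6.95 to 7.2, 0.794), Mgst1 (14.49 against 12.90 to 13.11, 0.866), Pcna (14.34 against 12.14 to 12.67, 0.758) and Prom1 (12.29 against 11.04 to 11.33, 0.769) and lowest in Cry1 (5.34 against 5.58 to 5.64, 0.785), Krt18 (6.53 against 7.49 to 7.78, 0.764), Slc22a7 (9.09 against 12.09 to 12.56, 0.863), Slc2a5 (13.19 against 14.20 to 14.61, 0.712) and Slc8a1 (9.90 against 10.85 to 10.96, 0.898). Sham mock 4 was highest in Cldn10 (14.12 against 13.76 to 13.84, 0.758) and Ugt3a1 (16.87 against 16.65 to 16.71, 0.731) and lowest in Hlf (8.77 against 9.69 to 9.97, 0.764). Sham mock 3 accounted for 12 of these and glycerol mock 6 for 9, and their cause was not tested.

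The glycerol effect differed between anti-miR-22 and mock by limma's test of the difference in 12 of the named genes, given as the log2 effect with anti-miR-22 minus that with mock. It was higher in Zbtb16 (2.82), Ttpa (1.74), Pim3 (1.5), Golm1 (1.46) and Rgcc (1.44) and lower in Slc15a3 (-1.70), Plch1 (-1.56), Dctn4 (-1.39), Ddc (-1.32), Osmr (-1.16), Apob (-1.09) and Kdr (-0.96). The call was lost in Osmr without any of 9 single arrays (adjusted p 0.053 to 0.0898), in Kdr without any of 9 (0.0531 to 0.0829), in Plch1 without any of 8 (0.054 to 0.0825) and in Apob without any of 6 (0.0509 to 0.0673).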

How the results depend on the processing

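The 7641 calls, 4003 higher and 3638 lower, became 7121 to 7579 when each mock array was left out in turn (higher 3701 to 3958, lower 3401 to 3621) and 6228 to 7757 under other settings of the test, normalization and filters. A size of at least 1 on the log2 scale as well left 2822 calls (1451 higher, 1371 lower). Centring arrays on their medians gave 4245 higher and 3377 lower. Of 290 named genes, 239 were called, and 26 of these lost the call under at least 1 of 21 alternatives, while 0 changed sign. Among the 26, 15 lost it when a single mock array was left out. The others lost it only under 1 other alternative, among them Csf1r, S100a9, Cd4, Itgb6, Tkfc, Hk1, Serping1 and Mcm3. Of 90 list medians 13 changed sign under some alternative, each with a size below 0.3. The 85 differences between glycerol effects became 173 with trend and robust moderation, 141 with array weights, 136 after a second quantile normalization and 170 without dim probes, and 34 to 138 when single mock arrays were left out. The cause was not tested.

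Sham and glycerol arrays share replicate numbers, but deviations of same-numbered arrays correlated at -0.041 to 0.067, so the numbers were not taken as pairs. With the replicate number as a block 7366 probes were called (3839 higher, 3527 lower), and 89 for the difference between glycerol effects; the calls of Osmr (adjusted p = 0.0714) and Kdr (0.0506) in that difference were lost. The glycerol dose of each animal, separate animals per array, the top of the scale and the share of cells lost limit what these values show.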

Other observations

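Vmn1r19, a vomeronasal receptor with close copies, read 8.35, 8.97, 8.69, 8.85 and 9.47 in sham mock 1 to 5 and 2.65, 2.88 and 4.62 (lowest, median, highest) after glycerol, a fall to a dim level. In its family of 321 measured genes 4 were higher and 9 lower (4.05%). Which RNA its probe detects in kidney was not tested.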
